A study of Homo sapiens with 10 samples.

Results

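Short internal coding exons of the human genome were examined for the nucleosome positions called over them in human induced pluripotent stem cells (hiPSCs). A member had to be an internal exon of the canonical transcript of an autosomal protein-coding gene in GENCODE release 44 (GRCh38), coding over its whole length, at most 50 bp long, with introns of at least 1000 bp on both sides. The rule uses the annotation alone, and 2610 exons in 1945 genes met it, out of 64929 internal coding exons of any length with such introns and 150555 with introns of any length. They were 3 to 50 bp long, with a median of 41 bp, and 45 bp was the most frequent length, with 214 exons.

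The cells were of a single hiPSC line, PB010.5, which carries a FUCCI cell cycle reporter. Permeabilized cells were digested for 5 min with micrococcal nuclease (MNase), an enzyme that prefers the linker DNA outside nucleosomes, in 5 amounts between 0.5 U and 10 U. Each of the digestions gave 1 library, sequenced with 150-bp reads and again with 50-bp reads, which makes 10 samples and no replicate of any MNase amount. The data are a single list of 12921589 positions called by the authors on pooled libraries, of which 12465711 lie on autosomes. The list therefore allows no comparison of MNase amounts and no test between conditions, and it holds no expression values from which the cell type could be checked. Each position is an interval of 140 bp with a score that comes in steps of 1.23, and 94.4% of the autosomal midpoints lie on a grid of 10 bp. The reads behind a score are unknown, so the values carry no sampling error of their own. Intervals given for shares are 95% Wilson intervals, and those for differences of shares were built from them. They cover counting error only and treat sites as independent. SDs are over the 22 autosomes and describe spread, since autosomes are not replicates.

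A nucleosome holds about as much DNA as a typical exon of medium length, and exons are in many species richer in G and C than the introns beside them. Exons of a few codons, often called microexons when they are shortest, give the splicing machinery little sequence to recognize, and many are skipped in some tissues, above all outside neurons and muscle. An exon far shorter than a nucleosome leaves most of the wrapped DNA to intron sequence, including the pyrimidine-rich tract that precedes the 3′ splice site. The comparison therefore asks whether called nucleosomes lie over such exons more often than over intron sequence of the same composition. For each exon, the 3 nearest intronic windows on the same chromosome with exactly the same number of G and C within 73 bp of the center were taken, at least 1000 bp from any annotated exon.

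The shortest members show what such a site looks like. Each sequence below is from the GRCh38 reference in the direction of transcription, with 25 bases of the upstream intron and 10 bases of the downstream intron in lower case and the exon in capitals. They are shown because in each of them the exon makes up only a few bases of the DNA that a nucleosome would cover.
ASXL2 (chr2:25835528-25835565, minus strand): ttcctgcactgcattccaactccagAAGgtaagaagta
CLASP2 (chr3:33566722-33566759, minus strand): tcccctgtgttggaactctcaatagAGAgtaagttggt
NCAM1 (chr11:113246343-113246380, plus strand): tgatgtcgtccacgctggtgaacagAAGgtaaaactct
CYTH1 (chr17:78695997-78696034, minus strand): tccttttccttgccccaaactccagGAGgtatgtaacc
ASXL1 (chr20:32367702-32367739, plus strand): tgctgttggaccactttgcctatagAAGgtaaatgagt
MPC1 (chr6:166370208-166370246, minus strand): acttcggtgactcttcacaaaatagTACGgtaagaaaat
SEPTIN7 (chr7:35831467-35831506, plus strand): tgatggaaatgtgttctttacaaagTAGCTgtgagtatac
KSR1 (chr17:27585632-27585671, plus strand): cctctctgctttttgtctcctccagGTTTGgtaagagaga

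The exon sequence itself was richer in G and C (44.9%) than the 50 bp of intron upstream (34.3%) and downstream (37.4%) of it, and 42.8% of the upstream bases were T. On average the exon made up 26% of the stretch of DNA within 73 bp of its center. GC content over that stretch was 38.3% ± 10.1 (SD, n = 2610 exons). Exons of 120 to 170 bp chosen by the same rule, 20059 in all, had 47.3% over the same stretch. In the 20 bases before the AG of the 3′ splice site, 77.7% of the bases of short exons were C or T, compared with 74.3% for the exons of 120 to 170 bp. The downstream intron opened with GTAAG, the letters that pair best with U1 RNA at the 5′ splice site, at 48.7% of the short exons and 32.1% of the exons of 120 to 170 bp. A run of TTTTT, read in the direction of transcription, was present within 50 bp upstream at 49.8% and 34.7%. At 52.5% of the 398 exons of 1 to 27 bp the intron opened with GTAAG, compared with 45.2% of those of 41 to 50 bp.

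**Figure D1:**
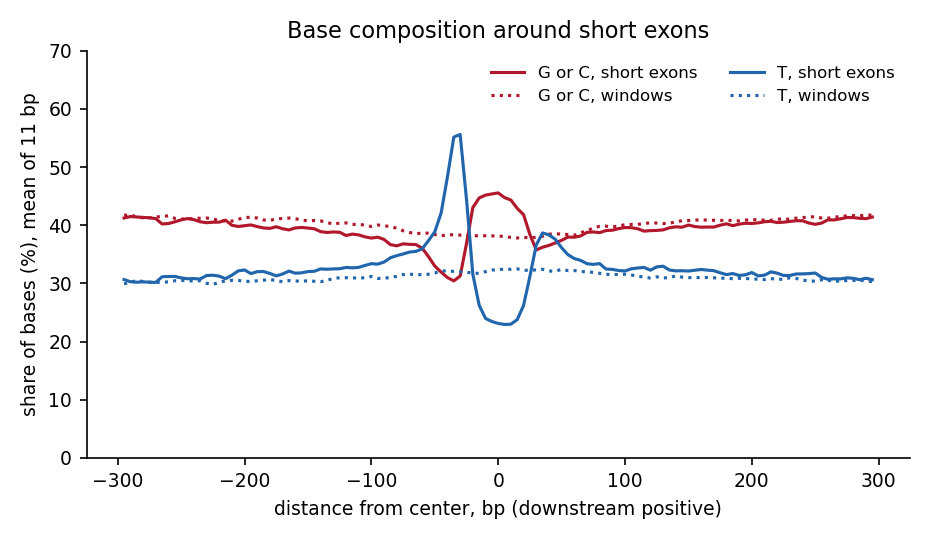
Share of bases that are G or C (red) and T (blue) by distance from the center of 2610 short exons (solid) and of their 7830 GC-matched intronic windows (dotted), as means over 11 bp. At the exon center the GC share is 45.6% and the T share 23.1%, whereas the windows hold 38.1% and 32.3%, and T peaks just upstream of the exon.

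Skipping also set short exons apart by annotation, and a length in whole codons did so for those of up to 40 bp. A length divisible by 3, which keeps the reading frame when an exon is skipped, was found in 64.6% of the exons of 1 to 27 bp, 44.1% of those of 28 to 40 bp and 38.1% of those of 41 to 50 bp, against 39.0% at 120 to 170 bp. At least 1 coding transcript of the same gene skipped the exon in 41.5%, 26.9% and 19.7% of the cases, and in 11.9% at 120 to 170 bp. The number of members per gene was mostly 1, in 1517 of the 1945 genes, and reached 14 in TRDN, which encodes triadin of the sarcoplasmic reticulum, and 13 in COL25A1. A longer annotated exon overlapped 710 of the members, and another annotated exon lay within 500 bp of 244.

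The centers of 1567 of the 2610 short exons, 60.0% (58.1% to 61.9%), lay inside a called position, that is within 70 bp of a midpoint. Among their 7830 GC-matched windows the share was 60.1%, and the difference was -0.102 percentage points (interval -2.28 to 2.06). With this match, the interval of the difference between short exons and intron sequence of equal composition thus held 0. With windows matched instead on GC content within 500 bp of the center, 62.4% of windows were covered and the difference was -2.36 percentage points. That value lies below the interval of the main difference, so the result depended on the matching. No interval was computed for this alternative. Over all 3677085 intronic windows, whose mean GC content was 40.7%, the share was 64.5%, which is above that of the short exons (difference -4.42 percentage points, interval -6.31 to -2.55). Over all 64929 internal coding exons with such introns it was 73.0%. On single autosomes the share of short exons covered ranged from 45.5% to 74.4%, and it was above that of the windows on 10 of the 22, with a mean difference of -0.568 percentage points ± 5.29 (SD, n = 22 autosomes).

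Counts of midpoints differed little between short exons and windows. Within 50 bp of the center there were 0.459 midpoints per short exon and 0.448 per window, a log2 ratio of 0.0333, against an SD of 0.147 over autosomes. The ratio was above 0 on 15 of the 22 autosomes. It was -0.0335 against windows matched on GC content within 500 bp, so its sign depended on the match. Against the exons' own flanks from 500 to 1000 bp the log2 ratio was -0.0613, and windows against their own flanks gave -0.123. The SD belongs to the ratio in the main setting. It is the spread of single autosomes and not the error of a pooled ratio. Within 500 bp there were 4.68 ± 1.52 midpoints per exon (SD, n = 2610 exons, range 0 to 8) and 4.76 ± 1.48 per window. The pair of midpoints on either side of the center was 230 bp apart at the median, compared with 220 bp at windows, a difference of a single grid step.

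The density profile of the short exons dipped slightly at the center, as did that of the windows. It was 4.51 midpoints per kb at the center of the exons and 4.44 at that of the windows. From 500 to 1000 bp away the exon profile ranged from 4.23 to 5.11, so the level at the center was inside its own variation, and the window profile ranged from 4.63 to 5.03. The lowest and highest points within 500 bp of the exons lay close together downstream, with 4.0 at 240 bp and 5.24 at 290 bp, both just outside the range of the flanks. In the exons of 120 to 170 bp the lowest point, 4.16 per kb, lay at 210 bp downstream, and the density rose to 6.09 per kb at 40 bp, above the 5.56 reached by their own windows. Short exons had no such maximum at their center.

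**Figure D2:**
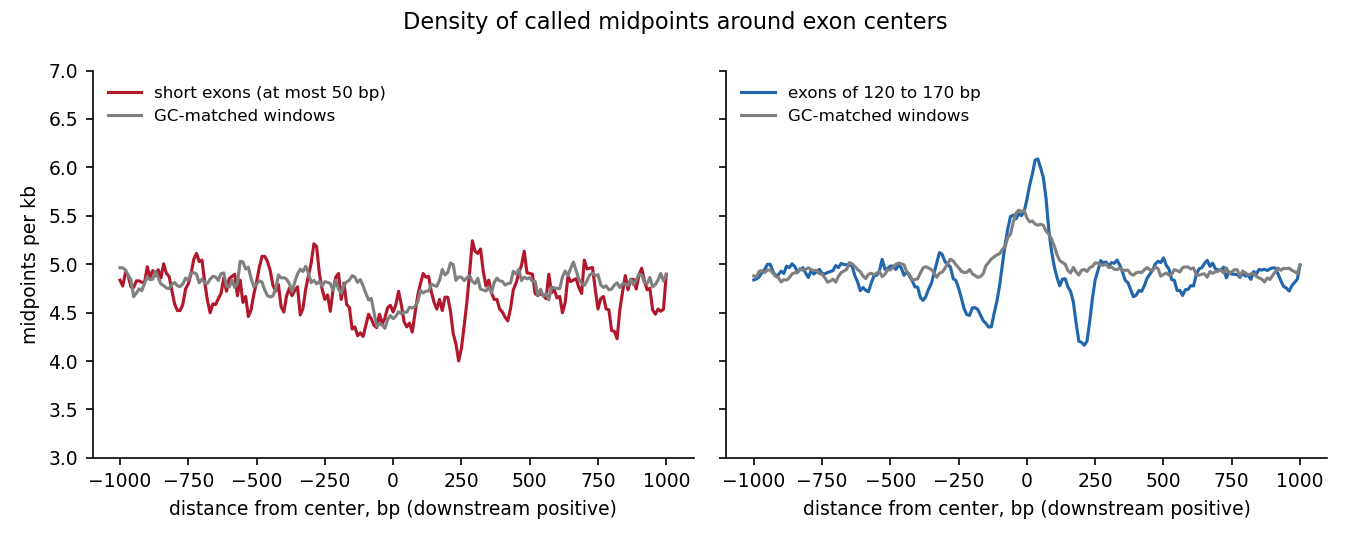
Midpoints per kb in 10-bp bins smoothed over 5 bins, by distance from the center in the direction of transcription, for short exons (red, n = 2610), exons of 120 to 170 bp (blue, n = 20059) and the GC-matched windows of each (gray). Short exons run at 4.51 per kb at the center beside 4.44 at the windows, whereas the longer exons peak at 6.09.

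Neither side of the short exon was favored. From 50 to 250 bp there were 2377 midpoints upstream and 2377 downstream, equal on the log2 scale beside a spread of 0.148 (SD, n = 22 autosomes), while the T-rich tract lies on the upstream side. At windows the counts were 7452 and 7502. The nearest midpoint lay within 20 bp of the center in 18.6% of the exons and 18.3% of the windows, from 21 to 50 bp in 27.2% and 26.4%, and from 51 to 70 bp in 14.2% and 15.4%. The median distance was 56 bp at exons and 57 bp at windows. The exon lay whole inside the interval of its nearest position in 1208 cases, 46.3%, and a further 359 exons with a covered center reached past the end of that interval.

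Scores over short exons were also like those over windows matched on GC content within 73 bp. The 1635 positions over exon centers had a mean score of 15.3 ± 7.36 (SD, n = 1635 positions), and those over window centers 15.3, a difference of -0.0593 with an SD of 0.999 over autosomes. The difference was -0.885 with windows matched on GC content within 500 bp and 0.0885 with windows matched on both widths. Both are below that SD, but it is the spread of single autosomes and not the error of a pooled difference. The SD alone therefore cannot show that this dependence on the matching is small. The best score over a covered center was 13.6 at the median, with quartiles of 9.87 and 19.7, at exons and at windows alike. The 10% of autosomal positions with the highest scores, those above 25.9, covered 146 exon centers, 5.59%, and 5.33% of window centers. Scores were lower near the center than further away. At exons they averaged 15.3 within 70 bp, 16.3 from there to 200 bp, 16.7 from there to 500 bp and 16.7 from there to 1000 bp, and at windows 15.3, 15.9, 16.4 and 16.4.

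Short exons differed widely among themselves, and the differences followed GC content. In the quartile with the lowest GC content, 18.4% to 30.6% within 73 bp, the center of 38.6% of 658 exons was covered. In the next quartiles the share was 59.6% of 648 exons and 68.9% of 668, and in the highest, with 44.9% to 72.1% GC, 73.4% of 636. The highest quartile exceeded the lowest by 34.8 percentage points (interval 29.6 to 39.7). The matched windows went from 37.9% through 58.4% and 68.5% to 76.0%, a difference of 38.1 percentage points (interval 35.2 to 40.9). In none of the quartiles did exons and windows differ by more than their interval, and the largest difference was -2.62 percentage points (interval -6.64 to 1.21) in the highest quartile. The mean score over covered centers went from 10.3 to 12.0, 15.1 and 20.7 at exons and from 10.4 to 12.0, 15.2 and 20.4 at windows. The part of amplification and of digestion in this relation with GC content was not tested.

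**Figure D3:**
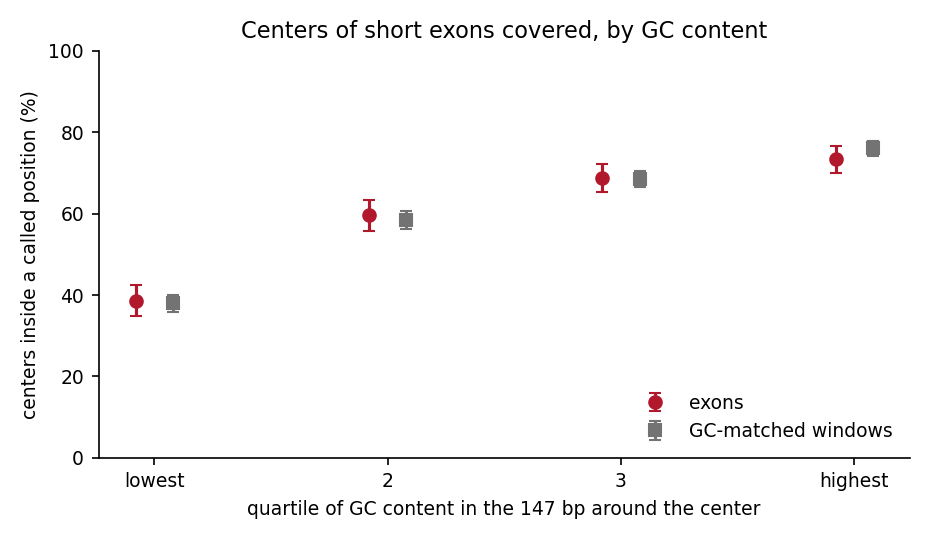
Share of short exon centers inside a called position (circles, 636 to 668 exons per quartile) and of GC-matched windows (squares) by quartile of GC content, with 95% Wilson intervals. Both go from about 38% in the lowest quartile, 38.6% at exons and 37.9% at windows, to 73.4% and 76.0% in the highest.

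Within the set, length made little difference. The share of covered centers was 58.0% (53.1% to 62.8%) for the 398 exons of 1 to 27 bp, 60.0% (56.7% to 63.2%) for the 873 of 28 to 40 bp and 60.6% (58.0% to 63.2%) for the 1339 of 41 to 50 bp. Against their own windows the differences were -2.51 (interval -8.13 to 3.00), 0.420 (-3.36 to 4.14) and 0.274 percentage points (-2.77 to 3.27). The log2 ratio of midpoint density to windows was -0.0221, 0.0549 and 0.0352, each smaller than its spread over autosomes with 20 or more such exons (SDs of 0.353, 0.224 and 0.209, n = 9, 19 and 22 autosomes). At the limit of the rule, 61.7% of the exons of 49 to 50 bp were covered and 61.6% of the exons of 51 to 52 bp just outside it.

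Longer exons were covered more often. The share was 65.5% at 51 to 80 bp, 71.5% above 80 and below 120 bp and 75.8% at 120 to 170 bp. The last exceeded that of the short exons by 15.7 percentage points (interval 13.8 to 17.7). The windows matched to each class went up as well, to 63.1%, 69.0% and 72.4%. Once the matched windows of each were subtracted, exons of 120 to 170 bp exceeded short exons by 3.45 percentage points (interval 1.18 to 5.73). Inside the GC quartiles of the short exons, the longer ones were covered more often in the third quartile, by 5.77 percentage points (2.22 to 9.51), and in the highest, by 5.36 (1.99 to 9.0), and the difference was within its interval of 0 in the lowest, at 4.17 (-4.17 to 12.7), and the next, at -1.95 (-6.61 to 2.78). Between longer and short exons, the density of midpoints against windows differed by 0.0288 on the log2 scale, with an SD of 0.170 over autosomes. The difference was above 0 on 12 of 22 autosomes. With windows matched on the GC content within 500 bp instead, this difference was 0.28. With only positions at or above the median score it was -0.0669, so its sign depended on the setting.

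**Figure D4:**
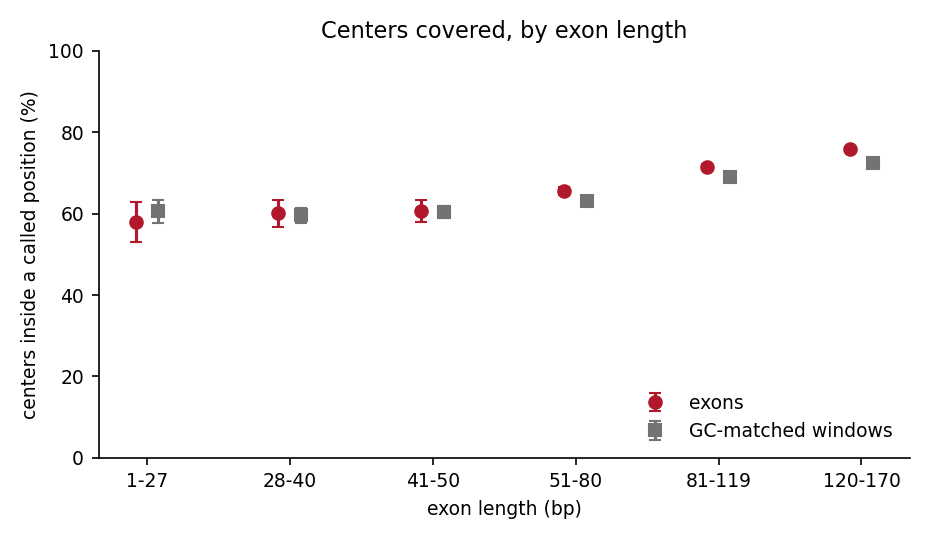
Share of exon centers inside a called position (circles) and of GC-matched windows (squares) by exon length, with 95% Wilson intervals, for internal coding exons with introns of at least 1000 bp. Up to 50 bp exons and windows stand side by side near 60%, and at 120 to 170 bp exons reach 75.8% and windows 72.4%.

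Other properties of the exon were compared in the same way. Exons skipped by a coding transcript were covered in 61.7% of 664 cases and the others in 59.5% of 1946, with differences from windows of -1.66 (-5.95 to 2.55) and 0.428 percentage points (-2.10 to 2.93). Exons with a length divisible by 3 were covered in 61.4% and others in 59.0%, and the differences from windows were -0.145 and -0.0686. With TTTTT upstream 54.4% of 1300 centers were covered, and without it 65.6% of 1310, a difference of -11.3 percentage points (interval -15.0 to -7.51). Their GC content was 34.1% and 42.4%, and the matched windows, at 53.3% and 66.9%, differed in the same direction. Against its own windows each class differed by less than its interval, by 1.05 (-2.08 to 4.17) and -1.25 percentage points (-4.24 to 1.68). Exons under 10000 bp from the start of the transcript were covered in 62.1%, which is also the share of their windows. By the shorter of the adjoining introns, the difference from windows was 1.83 percentage points (-0.834 to 4.46) below 3000 bp, -4.99 (-9.34 to -0.675) from 3000 to below 10000 bp and -0.472 (-8.13 to 6.93) from 10000 bp on, with no order by intron length. Of 21 such classes and 5 gene lists, 2 had an interval without 0, this class of introns and the collagen list, with no adjustment for the number of intervals.

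The 100 bases around the center occurred more than once in the reference at 58 short exons, and none of the 58 was covered (interval to 6.21%), while 51 of them had no midpoint within 500 bp. Of the matched windows whose central 100 bases occurred more than once, 4.17% were covered, a share inside that interval. Low coverage at such sequence was thus not particular to short exons. Of the exons of 120 to 170 bp with such sequence, 16.6% were covered. How reads from such copies were placed is not given in the sources used here, and its part in these counts was not tested. At the 2552 exons whose sequence occurred once, 61.4% were covered, as were 61.4% of such windows, and 24 exons had no midpoint within 500 bp. The exons farthest from any midpoint were among those whose central 100 bases occurred more than once. They belonged to POTEB3, POTEB2 and POTEB, copies of a primate ankyrin repeat gene family on chromosome 15, ANKRD20A1 on chromosome 9 and GTF2H2, which encodes a subunit of the transcription factor TFIIH, on chromosome 5. Their nearest midpoints were 1186096, 854365, 748766, 520727 and 324385 bp away. The 45-bp exon is printed for POTEB (chr15:21857994-21858073, minus strand) because its 100 central bases occur 5 times in the reference.
POTEB: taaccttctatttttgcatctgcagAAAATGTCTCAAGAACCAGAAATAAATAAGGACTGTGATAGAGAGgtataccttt

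The 8 shortest exons, whose sequences stand above, included 6 with a covered center. ASXL1 and ASXL2 encode related chromatin regulators that act with a deubiquitinase on histone H2A. In both the third exon consists of the bases AAG. In ASXL2 the nearest midpoint lay 133 bp upstream, with a score of 17.3, and in ASXL1 106 bp upstream, with a score of 4.94, which is above only 0.152% of the positions on its chromosome. Neither exon was inside a position, and the intervals on either side left gaps of 360 and 230 bp between midpoints.

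The other exons of 3 bp were inside a position. In CLASP2, which binds the growing ends of microtubules, the midpoint lay 1 bp downstream of the center, with a score of 9.87. In NCAM1, a neural cell adhesion molecule, it lay 2 bp upstream, with a score of 14.8. Both exons thus sat almost on the midpoint. In CYTH1, an exchange factor for ARF GTPases, the midpoint lay 36 bp downstream and had a score of 7.40.

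The exon of 4 bp in MPC1, a subunit of the mitochondrial pyruvate carrier, had its midpoint 2 bp upstream and the highest score of the 8, 25.9, above 90.8% of the positions on its chromosome. The exon of 5 bp in SEPTIN7, a filament-forming GTPase, had a midpoint 8 bp downstream with a score of 19.7. The exon of 5 bp in KSR1, a scaffold of the RAF, MEK and ERK kinases, lay at the very end of its position, which ran from 27585522 to 27585661 with a score of 17.3 and a midpoint 67 bp upstream.

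**Figure D5:**
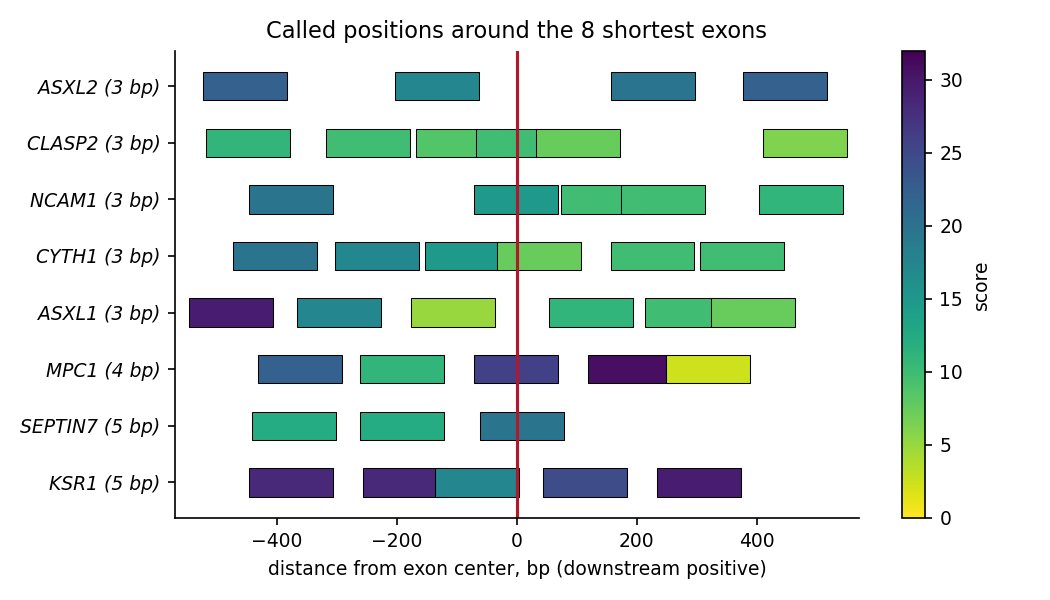
Called positions (boxes of 140 bp, colored by score) within 500 bp of the centers of the 8 shortest exons, by distance from the exon center (red line) in the direction of transcription, with downstream boxes drawn over upstream ones where they overlap. The line crosses a box in 6 genes and falls between boxes in ASXL2 and ASXL1.

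The highest scores over members were found at exons of 24 to 50 bp and 49.7% to 55.8% GC. They were 53.1 in RHBDL3, a member of the rhomboid protease family, 45.7 in ASAP3, a GTPase-activating protein for ARF, 44.4 in DBF4B, a regulatory subunit of the replication kinase CDC7, 43.2 in ATCAY, which encodes the brain protein caytaxin, and 40.7 in IL6R, the receptor for interleukin 6. Each was above more than 99% of the positions on its chromosome. The exon of RHBDL3 is printed because it was centered 2 bp from the midpoint of the position with the highest score of all.
RHBDL3 (chr17:32267877-32267935, plus strand): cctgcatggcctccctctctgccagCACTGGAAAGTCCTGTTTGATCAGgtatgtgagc

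Gene lists were compared by their counts, beside 60.0% of all members covered, a median best score of 13.6 and a median distance of 56 bp. Collagen genes, whose exons encode repeats of a tripeptide that begins with glycine, held 102 members in 26 genes, and 40 of these were 45 bp long. Of the 102, 78 were covered, 76.5% (67.4% to 83.6%), against 65.4% of 306 matched windows, a difference of 11.1 percentage points (interval 0.675 to 20.1). Their mean GC content was 44.8%, their median best score 14.8 and their median distance to a midpoint 40 bp. A length divisible by 3 was found in 95 of them and by 9 in 73, and 9 were skipped by a coding transcript. Members of the same gene share a locus, so they are not independent.

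The shortest collagen exons were 8 bp long in COL25A1, COL23A1 and COL13A1, which encode membrane-bound collagens, and 9 bp long in COL4A4 of the basement membrane. All 4 were inside a position. The midpoints lay 30 and 44 bp downstream in COL25A1 and COL23A1 and 60 and 36 bp upstream in COL13A1 and COL4A4. The scores were 13.6, 9.87, 17.3 and 7.40, in the same order. The sequences are shown because these exons, the shortest of the list, were all inside a position.
COL25A1 (chr4:109048158-109048200, minus strand): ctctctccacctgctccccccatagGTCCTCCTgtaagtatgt
COL23A1 (chr5:178290352-178290394, minus strand): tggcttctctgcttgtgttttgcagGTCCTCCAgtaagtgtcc
COL13A1 (chr10:69867773-69867815, plus strand): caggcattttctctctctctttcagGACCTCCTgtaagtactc
COL4A4 (chr2:227025792-227025835, minus strand): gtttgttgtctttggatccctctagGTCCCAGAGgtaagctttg

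Of 44 synapse and axon genes, 29 held 53 members, and 38 of these were covered, 71.7% (58.4% to 82.0%), with 64.2% of their windows, a difference of 7.55 percentage points (interval -7.47 to 20.4). A coding transcript skipped 36 of the 53 members, beside 25.4% of all members and 41.5% of those of 1 to 27 bp. The median length in this list was 27 bp. Beside CLASP2 and NCAM1, the shortest were an exon of 9 bp in PTPRS, a receptor tyrosine phosphatase, with a midpoint 4 bp upstream and a score of 16.0, and an exon of 12 bp in ERC2, a protein of the presynaptic active zone, with a midpoint 31 bp downstream and a score of 13.6.

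Of 22 heart muscle genes, 8 held 18 members, 10 of them covered, 55.6% (33.7% to 75.4%), with 63.0% of their windows, a difference of -7.41 percentage points (-32.1 to 16.5). RYR2, the calcium release channel of the sarcoplasmic reticulum, had neighboring short exons with different outcomes. Its exon 4, of 21 bp, lay 42 bp from the midpoint of a position with a score of 8.64. Its exon 5, of 15 bp, had no midpoint nearer than 183 bp and lay in a gap of 560 bp between midpoints. The 27-bp exon in CACNA1C, the pore of the L-type calcium channel, was centered 72 bp from a midpoint with a score of 27.1. Its center was just outside the position, while the upstream end of the exon lay inside it. The exon of 30 bp in TNNT2, cardiac troponin T, lay 41 bp from a midpoint with a score of 19.7, inside the position from 201369802 to 201369941. Coding transcripts of TNNT2 skipped this exon in 8 cases and included it in 6.

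Of 37 chromatin genes, 12 held 14 members, 6 of them covered, 42.9% (21.4% to 67.4%), with 47.6% of their windows and a mean GC content of 35.2%. The exon of 12 bp in KDM1A, a histone demethylase, was centered 4 bp from a midpoint with a score of 9.87, and 16 coding transcripts skipped it. The exon of 16 bp in SETD2, a histone H3 lysine methyltransferase, had its nearest midpoint 196 bp away. In PHF21A, a partner of KDM1A, and DNMT1, the maintenance DNA methyltransferase, the nearest midpoints lay 72 and 75 bp away, so that neither center was covered. The sequence of the KDM1A exon is shown because it is the shortest of the list.
KDM1A (chr1:23066035-23066081, plus strand): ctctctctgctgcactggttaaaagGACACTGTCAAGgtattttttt

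Genes whose symbols begin with EIF and a digit held 5 members, 3 of them covered, as were 60.0% of their windows. Those in EIF4G3, a scaffold of translation initiation, had 21 and 33 bp, lay 4 and 45 bp from a midpoint and had scores of 7.40 and 12.3. Those in EIF2AK2 and EIF2AK1, kinases that phosphorylate the initiation factor eIF2, were not covered, with distances of 82 and 176 bp. None of 16 pluripotency genes held a member.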

How the data were processed

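MNase-seq libraries of hiPSCs were trimmed with Trimmomatic 0.40, aligned to GRCh38, filtered for blacklisted regions and passed through the nucMACC workflow by the authors, who called positions on pooled libraries. The runs pooled, the aligner and the position caller are not given in the sources used here. The deposited score is a signal per position whose scaling is not stated.

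All autosomal positions were used without a filter on score, and no position passed a chromosome end of the reference. Canonical transcripts came from GENCODE release 44, whereas the study's methods name release 48. Intronic windows were centered every 200 bp in introns of canonical transcripts. The 3 windows per exon gave 7830, of which 7722 were distinct, at a median distance of 17214.5 bp. Copies of the central 100 bases were counted on both strands of chromosomes 1 to 22, X and Y. GTAAG was read at the first bases of the downstream intron and TTTTT in the direction of transcription only.

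The members and gene lists were chosen with earlier results of these data known. Named exons were the 8 shortest (chromosome 8 left out, which removed none of them), the 5 with the highest score over the center, the 5 farthest from a midpoint and the 4 shortest of each gene list. With a single pooled list there is no test and no p-value. The alternatives are listed in the closing section. Removal of midpoints at the 2610 exons in a check with simulated positions, by -1 on the log2 scale, was recovered as -0.970. Computation used NumPy 2.4.6 and pandas 2.3.3 under Python 3.11.15, with figures from matplotlib 3.10.9.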

Additional observations from a re-analysis of the deposited data

How the results depend on the processing

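For 8 results, 32 values were computed under other settings. Of these, 30 moved by less than the spread over autosomes or the counting interval. The spread over single autosomes is not the error of a pooled value, so this count does not show that the results were stable. The score difference, -0.0593 in the main setting, was -0.885 with the match within 500 bp and is among the 30. The share of exon centers covered, as a difference from windows, was -2.36 percentage points with windows matched on the GC content within 500 bp, where windows were covered in 62.4%, against -0.102 with the match within 73 bp and -0.264 with both matches together. With the match within 500 bp, the difference in log2 midpoint density between exons of 120 to 170 bp and short exons was 0.28 against 0.0288. With only positions at or above the median score it was -0.0669. The cause was not tested. The settings added after the data were seen were the match on both widths, the restriction to sequences that occur once and the removal of exons overlapped by a longer one, with 12 values in all. Alternatives that leave out repeats were not run, because the reference used here does not mark them. No paired analysis was possible because the positions were called on pooled libraries. Leaving out a library could not be done either. The number of reads behind a position is unknown, and locations are limited to about 10 bp.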
